A study of Mus musculus with 6 samples.

Results

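The subject is a group of related mouse miRNAs, the miR-297 family together with the miR-466, miR-467 and miR-669 families, in adipocytes differentiated with or without interleukin-6 (IL-6). Members were all mouse miRNAs on the array that carry exactly one of these numbers in their name, with any letter and either arm, whether detected or not. This gave 61 members of 1247 miRNAs, read by 162 of 3105 probes. By family there were 3 members of miR-297, 23 of miR-466, 12 of miR-467 and 23 of miR-669. By arm there were 26 on the 3p arm, 25 on the 5p arm and 10 with no arm in the name.

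The cells were 3T3-L1, a clonal mouse embryonic fibroblast line that turns into fat cells in culture, so every array came from a single established line. All samples were taken on day 8 and had received isobutyl-methylxanthine, dexamethasone, rosiglitazone and insulin to start differentiation. The 4 control samples had no cytokine, and the 2 IL-6 samples had recombinant IL-6 at 1 ng/ml from induction onwards, renewed daily. Total RNA was labelled with Cy3 and hybridised to 1-colour arrays, and the study asked which miRNAs differed with IL-6.

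MicroRNAs are short RNAs cut from hairpin precursors. Each hairpin can give a product from its 5p and its 3p arm, and bases 2 to 8 of the product, the seed, pair with target messages. Most genes of these families sit in a tandem cluster within an intron of Sfmbt2, which encodes a Polycomb-type chromatin protein and is known for paternal expression in the mouse placenta. The cluster arose by local duplication, and its products are rich in alternating UG or AC bases. IL-6 is a cytokine that signals through gp130 and STAT3.

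In the RefSeq annotation (GRCm38.p6), 71 hairpins of the families lay within the bounds of Sfmbt2 (chromosome 2, 10370440 to 10595253) and 10 lay elsewhere. By the listed probe positions that fell inside such a hairpin, 51 members matched the Sfmbt2 cluster alone, 7 matched hairpins elsewhere alone, and 3 matched both. The miR-466i pair lay within the bounds of Cdk13, miR-467f within Fxr2, miR-466q within Tnik and miR-467g within Grk4. miR-669n belonged to both sets, since its probes matched Mir669c in the cluster and Mir669n within Slc30a7. A location therefore tells where a matching hairpin lies, not which copy produced the signal.

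The probe sequences are printed because many hold an alternating stretch, whose length and flanking bases differ between members. Each line gives the longest probe of a tested member, 5′ to 3′, as DNA. A probe is complementary to its miRNA. Capitals mark its longest strictly alternating stretch of G and T, or of C and A.
miR-466f-3p: gtgtgtaTGTGTGTGTG
miR-466h-3p: GTGTGTGTGTGcgt
miR-466i-3p: tagtgtgtaTGTGTGTGTG
miR-466i-5p: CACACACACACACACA
miR-466q: acgtaTGTGTGTGTGTG
miR-467a-3p: tgtagGTGTGTGTatgtata
miR-467b-5p: catatACAtgcaggcact
miR-467f: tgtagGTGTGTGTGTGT
miR-669c-3p: tttactTGTGTGTGTGTG
miR-669f-3p: atacGTGTGTGTGTatgt
miR-669n: acacacatcCACACACAa
miR-669p-3p: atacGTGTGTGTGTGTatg
The stretch was 16 bases in miR-466i-5p, the whole of the probe, and 3 bases in miR-467b-5p. Each of the miR-466f-3p probes is contained, letter for letter, in a miR-466i-3p probe, so these members' signals do not come from independent sequences.

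Mature sequences in the RefSeq table matched 7 of the 61 members, and 4 of those 7 were tested. They are shown with the seed in capitals, because their seeds tell whether the products could share targets by this criterion.
miR-466i-3p: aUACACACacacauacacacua
miR-466q: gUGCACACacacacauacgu
miR-467f: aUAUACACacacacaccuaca
miR-669n: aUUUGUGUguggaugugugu
On GRCm38.p6 these map to chr13:17747552-17747573 (plus strand, miR-466i-3p), chr3:28419988-28420007 (plus strand, miR-466q), chr11:69635419-69635439 (minus strand, miR-467f) and chr3:115979905-115979924 (plus strand, miR-669n). The listed probe position of miR-467f, chr11:69635485-69635500, lies in the same Mir467f hairpin but does not overlap this mature position. The listed and mature positions of miR-467g likewise do not overlap within its hairpin. The 7 matched members had 7 different seeds. Among the 1017 of 1247 miRNAs on the array with a RefSeq sequence, no other one carried any of them. Members without a matched sequence, which include most tested ones, could not be compared, so seeds shared within the families stay unknown.

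Most members were not detected. A probe counted as detected where at least 0.5 of its spots were well above background, and a miRNA where any of its probes was. By this rule 13 of the 61 members were detected on at least 1 array and 48 on none. Controls 1 to 4 had 11, 12, 11 and 12 detected members, and IL-6 1 and 2 had 13 and 12. Of the 48, 45 had no spot well above background on any array. miR-466b-3p, matched at 13 hairpin positions in the cluster, had the most such spots among the 48 (38 over the 6 arrays), and its scaled signal did not exceed 11.6. A member in this class is not well above background here, which gives a bound on its signal and not its absence.

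**Figure D1:**
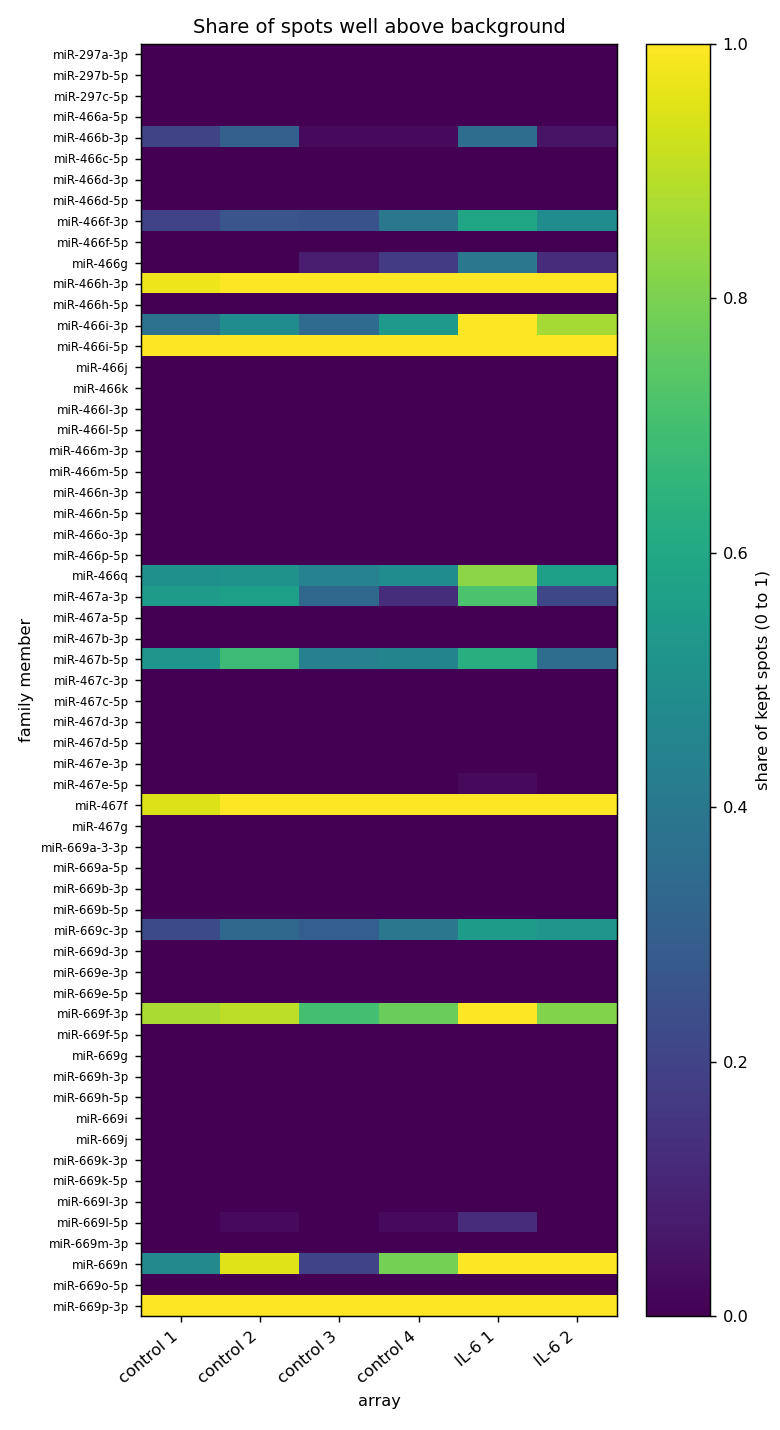
Share of kept spots well above background (colour, 0 to 1) for each of the 61 members (rows, by family) on each of the 6 arrays (columns). All 3 miR-297 members and most other rows are at 0 on every array, and the bright rows are the same few members in both groups.

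No miR-297 member was detected. In miR-466, 5 of 23 members could be tested, in miR-467 3 of 12, and in miR-669 4 of 23. A miRNA was tested where it was detected on all arrays of at least 1 group. Of the 12, 9 were detected on all 6 arrays, and miR-467a-3p, miR-669c-3p and miR-669n entered through the IL-6 arrays, so counts and medians over the 12 describe the members that passed and not the families. By arm, 7 of 26 3p members, 2 of 25 5p members and 3 of 10 without an arm were tested. By location, 7 of 51 members inside Sfmbt2 were tested, 4 of 7 outside it, and 1 of 3 that matched both. The opposite arms that bear the names of tested members, namely miR-466f-5p, miR-466h-5p, miR-467a-5p, miR-467b-3p and miR-669f-5p, were detected on no array. By listed positions, miR-669a-5p shares hairpins with miR-669p-3p and miR-669f-3p, and miR-669o-5p shares Mir669o with miR-669f-3p. Neither miR-669a-5p nor miR-669o-5p was detected on any array. Both arms of the miR-466i hairpin were tested, and so were miR-669c-3p and miR-669n, whose probes match different stretches of the Mir669c hairpin.

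Members with a long alternating stretch in the probe were detected more often. The length classes used here were chosen after values were seen and carry no test. All 9 members with a stretch of at least 10 bases were tested, against 2 of 14 with 8 or 9 bases and 1 of 38 with under 8. For comparison, 2 of 2 other miRNAs on the array with at least 10 bases were tested, 1 of 5 with 8 or 9, and 284 of 1179 with under 8. A stretch of at least 8 bases was present in 37.7% of members and in 0.590% of other miRNAs. A pair of members with a stretch of 9 bases shows the class that was not detected, with capitals as before.
miR-466p-5p: atgtacatgtACACACACA
miR-669a-3-3p: atacaTGTGTGTGTatgttatg
The first matched 10 hairpin positions in the cluster and the second 1, and neither had a spot well above background on any array. How well each probe distinguishes its miRNA from other RNAs with such stretches was not tested.

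miR-466g was detected on 2 arrays, control 4 and IL-6 1, and so could not be tested. Its scaled signals, on the linear scale and before the floor, were 1.62, 2.13, 3.93 and 7.60 on controls 1 to 4 and 7.96 and 5.78 on IL-6 1 and 2. The IL-6 values straddled that of control 4 and lay above those of the other controls.

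None of the 12 tested members passed the test for IL-6 against control. The test was limma over all 299 tested miRNAs with Benjamini-Hochberg adjustment at 0.05, which called 0.334% of them higher (1 miRNA, not a member) and 0% lower. At an unadjusted limma p under 0.05, 9 of 12 members were higher with IL-6 against a background of 10.7%, and 1 of 12 was lower against 12%. The 9 include miR-669c-3p and miR-669n, which entered through the IL-6 arrays, so the filter itself favours this count. With detection required on all 6 arrays, 7 of 9 members were higher at that p, against 21 of 264 miRNAs. In that setting 1 of 9 was lower, against 35 of 264. Without a test, both IL-6 arrays lay above all 4 controls for 9 of 12 members (background 13%) and below them for 1 (background 21.7%). The median log2 difference was 0.89 over tested members and -0.016 over all tested miRNAs. No label gives separate cultures for the replicates, and the p-values therefore rest on variation among these 6 samples that may be technical. Fewer cells with a miRNA and less of it per cell cannot be told apart in such bulk RNA.

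Marker miRNAs of the cells were set beside these differences. All 7 adipocyte markers were detected on all 6 arrays, with differences from -0.29 (miR-378c) to -0.11 (miR-103-3p). Of these 7, 4 were lower at an unadjusted limma p under 0.05 (background 12%) and 0 passed after adjustment (lowest limma adjusted p = 0.106). The 4 were miR-193a-3p, miR-378c and both arms of miR-378a. Those of miR-378 are related, so the 4 are not all separate signals. The summed scaled signal of the 7 markers was 5066 to 5824 on the controls and 4934 to 5020 with IL-6, so the groups did not overlap. The largest parts of the sum came from miR-103-3p, miR-107-3p and miR-365-3p, none of them among those 4. For comparison, both IL-6 arrays lay below all controls for 21.7% of all tested miRNAs. The direction depended on scaling: 7 of 7 were below 0 with each scaling and 0 of 7 without scaling. All 4 mesenchymal markers were detected on all 6 arrays, from -0.30 (miR-31-5p, limma adjusted p = 0.0845) to 0.051, and their sums of 4389 to 5368 and 4627 to 5149 overlapped. Markers of muscle, blood, endothelium, neural tissue and liver were detected on none. Of the 5 epithelial markers, miR-205-5p alone was detected, with a difference of 0.093 (-0.019 with scaling over all mouse probes) and signals of 71.8 to 80.3 against 75.9 to 83.5. The part of the cells' makeup in the members' differences was not tested.

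**Figure D2:**
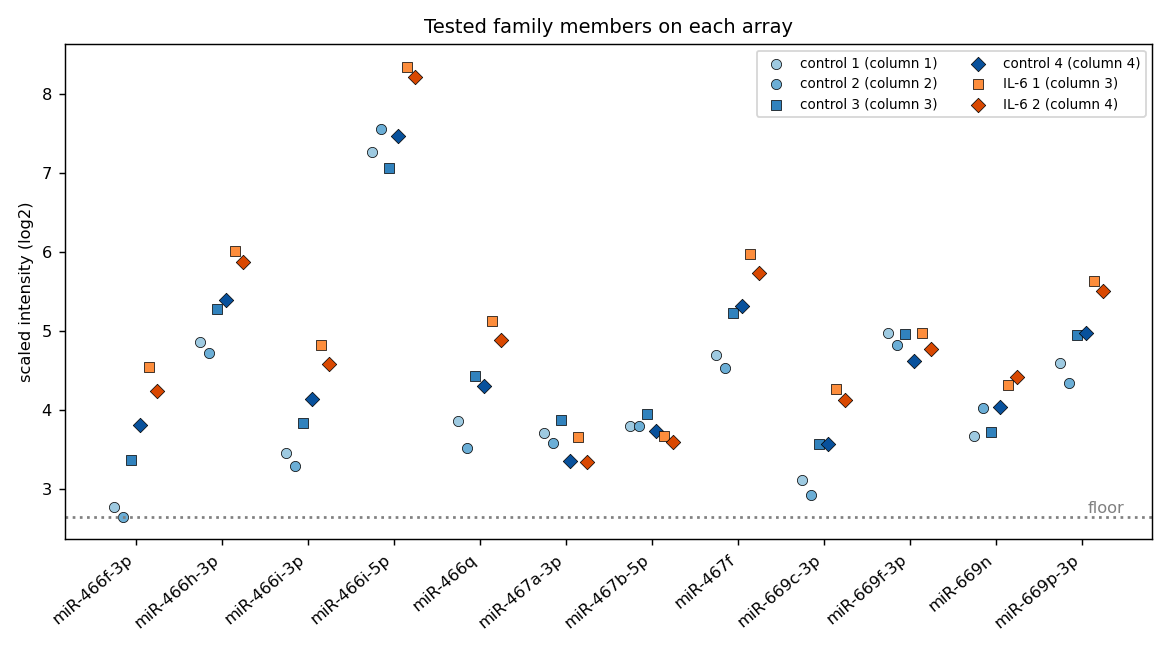
Scaled intensity (log2) of the 12 tested members on each array. Circles are slide columns 1 and 2, squares column 3 and diamonds column 4; blue is control, orange IL-6, and the dotted line is the floor. For 9 members (and 13% of all tested miRNAs) both orange points lie above all blue points. Among the 9, miR-669c-3p and miR-669n entered through the IL-6 arrays. For 7 of those 9 members the dark blue points of columns 3 and 4 also lie above the light ones.

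Within miR-466, all 5 tested members had both IL-6 arrays above all controls (13% of all tested miRNAs did), and the median difference was 0.97. All values here are scaled intensities on a log2 scale with a floor of 2.64. miR-466i-5p, whose probe is a pure CA repeat, measured 7.26, 7.56, 7.07 and 7.47 on controls 1 to 4 and 8.35 and 8.21 on IL-6 1 and 2. It differed by 0.94 ± 0.15 (SE; limma adjusted p = 0.0724), with means of 7.34 ± 0.22 (SD, n = 4) and 8.28 ± 0.10 (SD, n = 2). The opposite arm, miR-466i-3p, measured 3.45, 3.29, 3.83 and 4.13 on the controls and 4.83 and 4.58 with IL-6. Its difference was 1.03 ± 0.25 (SE; limma adjusted p = 0.0845). The members matched to the arms of this Cdk13 hairpin thus had differences within 1 SE of each other. Their control arrays were ordered differently: control 3 was the lowest for the 5p arm and control 2 for the 3p arm.

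Each miR-466f-3p probe is contained in a miR-466i-3p probe, and that hairpin lies within Cdk13, so the signal cannot be assigned to the cluster. miR-466f-3p, matched in the Sfmbt2 cluster alone by listed positions, measured 2.77, 2.64, 3.37 and 3.81 on the controls and 4.54 and 4.24 with IL-6. Its difference was 1.24 ± 0.35 (SE; limma adjusted p = 0.106). Control 2 was at the floor, and the 95% interval ran from 0.39 to 2.09. The difference was 0.37 with a higher floor set at the probe level, and 0.80 with slide column as a block. miR-466h-3p, also matched in the cluster alone, measured 4.87, 4.71, 5.28 and 5.39 on the controls and 6.01 and 5.87 with IL-6. Its difference was 0.88 ± 0.21 (SE; limma adjusted p = 0.0845). miR-466q, within Tnik, measured 3.86, 3.52, 4.43 and 4.31 against 5.12 and 4.89, a difference of 0.97 ± 0.27 (SE; limma adjusted p = 0.106). In these 3 members controls 1 and 2 were the low ones, and the groups did not overlap.

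The 3 tested members of miR-467 lay on both sides of 0, and their median difference was -0.13. miR-467f, within Fxr2, measured 4.70, 4.52, 5.22 and 5.32 on the controls and 5.98 and 5.74 with IL-6. Its difference was 0.92 ± 0.25 (SE; limma adjusted p = 0.106), with no overlap of the groups. miR-467a-3p, matched at 10 positions in the cluster, measured 3.71, 3.58, 3.87 and 3.35 against 3.65 and 3.34, so the groups overlapped. Its difference was -0.13 ± 0.16 (SE; limma adjusted p = 0.693), and the 95% interval ran from -0.53 to 0.27. It was detected on 3 of 4 controls. miR-467b-5p measured 3.79, 3.80, 3.95 and 3.74 on the controls and 3.67 and 3.59 with IL-6. This was the only tested member with both IL-6 arrays below all controls (background 21.7%), with a difference of -0.19 ± 0.076 (SE; limma adjusted p = 0.214).

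In miR-669, 3 of 4 tested members had both IL-6 arrays above all controls (13% of all tested miRNAs did), and the median difference was 0.68. Among the 3, miR-669c-3p and miR-669n entered through the IL-6 arrays, so the filter itself favours this count and median. miR-669p-3p measured 4.59, 4.34, 4.95 and 4.97 on the controls and 5.64 and 5.50 with IL-6, a difference of 0.86 ± 0.20 (SE; limma adjusted p = 0.0845). miR-669c-3p measured 3.12, 2.92, 3.57 and 3.57 against 4.27 and 4.13. Its difference was 0.91 ± 0.21 (SE; limma adjusted p = 0.0845), and it was detected on 3 of 4 controls. With the probe-level floor it was 0.18. Both matched hairpins of the Sfmbt2 cluster alone, and both had controls 1 and 2 lowest.

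miR-669n measured 3.67, 4.02, 3.72 and 4.04 on the controls and 4.31 and 4.41 with IL-6, and was detected on 3 of 4 controls. Its difference was 0.50 ± 0.13 (SE; limma adjusted p = 0.106), smaller than for the other 8 members that were higher on each IL-6 array than on any control. miR-669f-3p, matched at 13 positions in the cluster, measured 4.97, 4.82, 4.96 and 4.62 on the controls and 4.98 and 4.77 with IL-6. The groups overlapped, the difference was 0.033 ± 0.13 (SE; limma adjusted p = 0.916), and the 95% interval ran from -0.28 to 0.35. Its sign depended on the scaling, at -0.078 with scaling over all mouse probes and -0.099 with quantile scaling.

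Splitting by arm gave a median difference of 0.88 for the 7 tested 3p members, 0.38 for the 2 5p members (0.94 and -0.19) and 0.92 for the 3 without an arm. Splitting by location gave 0.86 for the 7 inside Sfmbt2 and 0.96 for the 4 outside it. The 4 outside (miR-466i-3p, miR-466i-5p, miR-466q and miR-467f) all had both IL-6 arrays above all controls, as did 4 of the 7 inside (background 13%). Of these inside, miR-669c-3p entered through the IL-6 arrays. Members matched to the cluster alone by listed positions thus lay on both sides of 0, from -0.19 to 1.24. The 4 outside it ran from 0.92 to 1.03. The value of 1.24 is that of miR-466f-3p, whose probes are contained in those of miR-466i-3p, a member outside the cluster. The difference between locations was not tested.

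**Figure D3:**
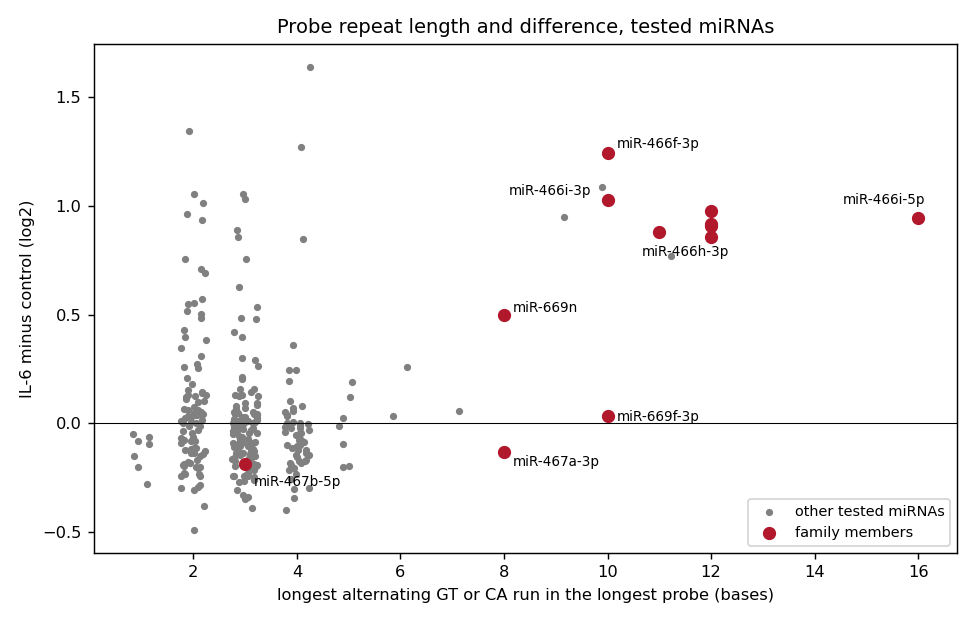
IL-6 minus control (log2) against the longest alternating GT or CA stretch in the longest probe (bases) for all 299 tested miRNAs, with members in red and small sideways shifts on the grey points. All 9 members at 10 or more bases lie above 0, with miR-669f-3p at 0.033, and their median is 0.92.

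Grouping by probe stretch, in the same classes chosen after values were seen, set most members with separate groups together. The 9 members with at least 10 bases had differences from 0.033 to 1.24 with a median of 0.92. Of them, 8 had both IL-6 arrays above all controls, against 13% of all tested miRNAs. Among the 8, miR-669c-3p entered through the IL-6 arrays. The 2 with 8 or 9 bases were miR-669n (0.50) and miR-467a-3p (-0.13), and the 1 with under 8 was miR-467b-5p (-0.19). miR-669f-3p and miR-669p-3p show how far close sequences parted. Their printed probes open with the same letters, and the GT stretch is 10 bases in the first and 12 in the second. Their differences were 0.033 and 0.86.

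The same difference was taken for miRNAs outside the families whose RefSeq mature sequence holds the 7 letters UGUGUGU or ACACACA, read on the miRNA's own strand. There were 9 on the array and 3 were tested, shown here with the longest stretch of the mature sequence in capitals.
miR-574-5p: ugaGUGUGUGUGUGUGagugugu
miR-1187: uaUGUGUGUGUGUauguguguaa
miR-3082-5p: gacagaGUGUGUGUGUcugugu
In their longest probes the stretch was 11, 9 and 10 bases, against 13, 11 and 10 in the mature sequences. Their differences were 0.77 ± 0.12, 0.95 ± 0.18 and 1.09 ± 0.25 (SE), with a median of 0.95. For each, both IL-6 arrays lay above all controls (background 13%), and none passed the test (limma adjusted p = 0.0724, 0.0795 and 0.0845). The members' median of 0.89 lay close to theirs, and the median of the 284 other tested miRNAs with a stretch under 8 bases was -0.028. Differences of these 284 ran from -0.49 to 1.64. Both IL-6 arrays lay above all controls for 27 of them and below for 64. The only miRNA called higher, miR-5117-5p (1.03), was among them, with a stretch of 3 bases. No difference between these sets was tested.

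**Figure D4:**
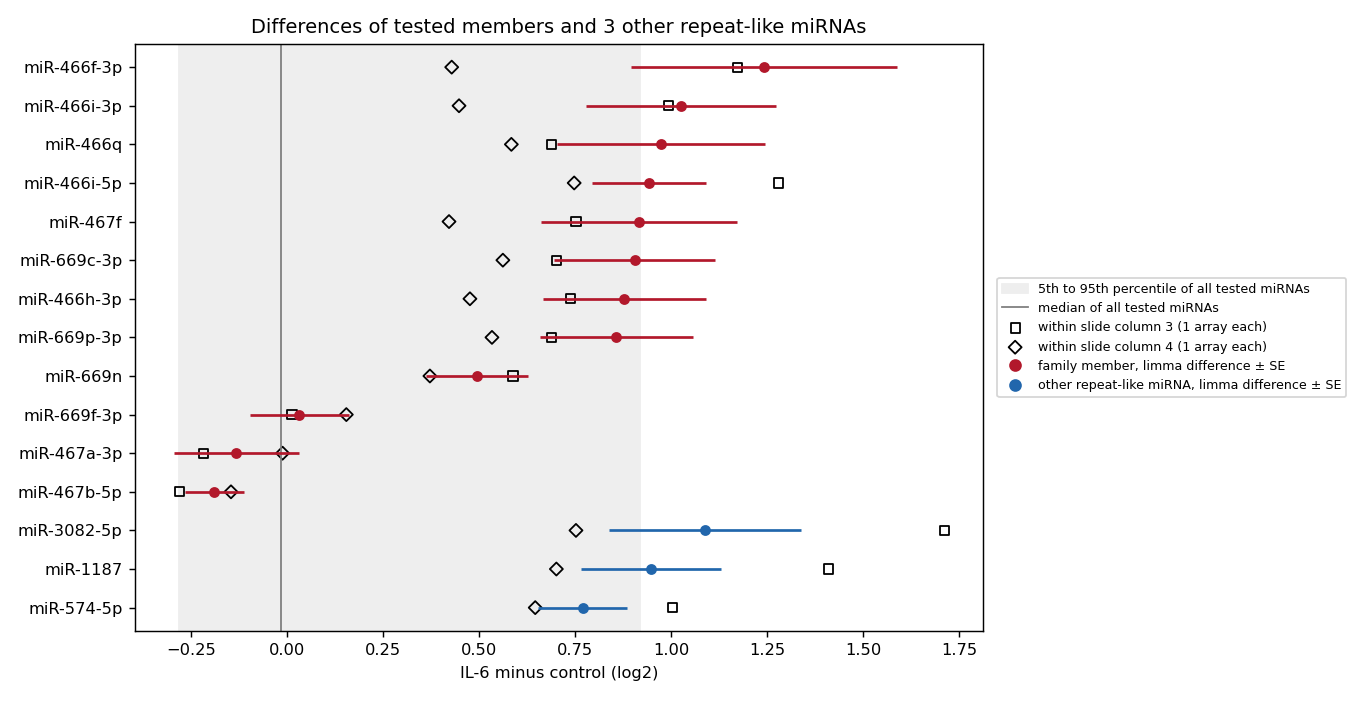
IL-6 minus control (log2) for the 12 tested members (red) and the 3 other repeat-like miRNAs (blue), as limma's difference ± SE over all arrays, with the differences within slide column 3 (squares) and column 4 (diamonds). The line is the median of all tested miRNAs and the grey band their 5th to 95th percentile; 9 members lie above 0 in all marks and clear of it by more than 1 SE.

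The position on the slide moved with these values. All controls lay in row 1 of the slide, in columns 1 to 4, and both IL-6 arrays in row 2, in columns 3 and 4, so row and group cannot be told apart. Controls 3 and 4 were both above controls 1 and 2 for 7 of 12 members, against 18.7% of all tested miRNAs. The 7 were miR-466f-3p, miR-466h-3p, miR-466i-3p, miR-466q, miR-467f, miR-669c-3p and miR-669p-3p, and controls 3 and 4 exceeded 1 and 2 in them by 0.49 to 0.88 (log2). All 7 have a GT probe stretch, as do miR-467a-3p and miR-669f-3p, in which the same quantity was -0.036 and -0.10. In miR-466i-5p and miR-669n, which have a CA stretch and separate groups, the same quantity was -0.14 and 0.031. In the 3 repeat-like miRNAs outside the families, also read by CA probes, it ran from -0.29 to -0.11. The part of slide position in the difference with IL-6 was not tested, since it shares the rows with the groups.

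Within matched columns the differences kept their sign. Each column holds 1 array per group, so these values carry no error. In 10 of 12 members IL-6 lay above control in both columns (background 34.4%), and in miR-467a-3p and miR-467b-5p below it in both (background 40.5%). Among the 12, miR-467a-3p, miR-669c-3p and miR-669n entered through the IL-6 arrays. The median over members was 0.70 in column 3 and 0.44 in column 4. With controls 3 and 4 alone, a comparison added after the values were seen, miR-466f-3p differed by 0.78 ± 0.21 (SE), miR-467f by 0.57 ± 0.14 and miR-466q by 0.62 ± 0.13, where all 4 controls had given 1.24, 0.92 and 0.97. miR-466i-5p, at 1.00 ± 0.18, did not shrink. No member passed in that comparison (limma adjusted p from 0.270 to 0.879).

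Single arrays also weighed on the calls. Without control 4, 6 members passed (limma adjusted p from 0.0398 to 0.0437): miR-466f-3p, miR-466h-3p, miR-466i-3p, miR-466i-5p, miR-669c-3p and miR-669p-3p. In that run 23 of all 300 tested miRNAs were called higher and 8 lower. Leaving out any other array gave 0 members. Without scaling, 8 members passed, the same 6 with miR-466q and miR-467f, among 34 of all 299 tested miRNAs that were called higher. The median of all tested miRNAs then moved to 0.27. Normexp background correction was run with an offset of 50 added to each intensity, which shrinks log2 differences of dim miRNAs. With it the median over members was -0.023, and 42 of the members' values then lay at the floor. miR-466i-5p was then 0.71 (limma adjusted p = 0.0533), miR-466h-3p 0.23, miR-467f 0.21 and miR-669p-3p 0.12.

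Across the series, detected miRNAs numbered 268 to 294 on the controls and 300 and 313 with IL-6. No spot was saturated, and the arrays correlated at r = 0.984 to 0.999. Repeated spots of the 15 member probes detected on every array varied by 2.07% to 24.6% (coefficient of variation). Several of these 15 probes read the same member. Their direction with IL-6 is not counted here, since the share over all probes was not taken.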

How the data were processed

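Members and lists were chosen with earlier results of these data known, and the classes of probe stretch, the comparison with controls 3 and 4 alone and the choice between the 2 floors below were made after values were seen. Every tested member is named with its values, as are tested repeat-like miRNAs outside the families. The scanner software of these 1-colour arrays was Agilent Feature Extraction, version 10.10.1.1, per the submitters' processing notes. The intensity values are, per the file headers, background-subtracted; the deposited spot flags mark detection and outliers. The deposited series table equalled the scanner's total probe intensity. Groups came from sample titles, and slide positions from the array position given with each file.

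Flagged outlier spots were left out, spots averaged per probe, and arrays scaled by the 75th percentile of the 502 probes detected on all arrays. Probes were averaged per miRNA, floored at 6.25 (the highest of the arrays' lowest detected miRNA signals) and log2 taken, which understates differences of dim miRNAs. The wording planned for the floor also allowed a probe-level floor, which was computed first and under which miR-669n passed; the miRNA level was then used, because the floor is applied to miRNAs. Probe positions were used only inside RefSeq GRCm38.p6 hairpins, since the files list positions of 2 kinds. Mature sequences are from RefSeq. Because these matched 7 of 61 members, planned comparisons of mature sequence features were void and probe sequences were used. limma 3.58.1 in R 4.3.3 (mean trend, no covariates, two-sided) was fitted to all 299 tested miRNAs, and tested on simulated data. Alternatives covered background, scaling, detection, probe choice, floor, the series table, trend, blocks and each array left out. The number of arrays limits the precision.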

Additional observations from a re-analysis of the deposited data

How the results depend on the processing

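With 2 IL-6 arrays, precision is limited, and dim members lie near the floor. Counts are of miRNAs passing limma at an adjusted p of 0.05. Of all tested miRNAs, the count called higher was 1, and became 0 with normexp, with detection required on all arrays, with the series table, with slide column as a block, with the replicate number as a block and with controls 3 and 4 alone. It was 2 with scaling over all mouse probes, with no detection filter and with the brightest probe, 7 with a floor of 0.5 times its value and 34 without scaling. Without detection filter, miRNAs constant on all arrays were dropped, leaving 336. Leaving out each array in turn gave 0 to 23 higher and 0 to 8 lower, both highest without control 4; a lone IL-6 array was then assumed to vary like the controls. Of members, the count called higher was 8 without scaling, 1 with the brightest probe (miR-669c-3p), 1 with the lowered floor (miR-466i-5p), 1 with the probe-level floor (miR-669n) and 0 to 6 with 1 array left out. None was called lower in any setting run.

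The median over members was -0.023 with normexp, 0.52 with the probe-level floor and 0.77 to 0.98 with 1 array left out. Under normexp the difference was -0.016 for miR-466f-3p, -0.020 for miR-669c-3p, -0.028 for miR-466i-3p, -0.025 for miR-669n, -0.048 for miR-466q and -0.11 for miR-669f-3p. It was 0.71 for miR-466i-5p, 0.23 for miR-466h-3p, 0.21 for miR-467f and 0.12 for miR-669p-3p. That setting added an offset of 50 to each intensity and placed 42 member values at the floor. With the probe-level floor miR-466f-3p was 0.37, miR-669c-3p 0.18, and miR-467a-3p and miR-467b-5p had no difference, all their values being at the floor. miR-669f-3p was also -0.078 with scaling over all mouse probes, -0.099 with quantile scaling and -0.018 with the replicate block. It ran from -0.069 (without IL-6 1) to 0.13 (without IL-6 2) with 1 array left out, and was below 0 without control 3 (-0.0032) and control 4 (-0.048) too. Without scaling miR-467a-3p was 0.16 and miR-467b-5p 0.10. With 1 array left out, miR-467a-3p ran from -0.29 (without IL-6 1) to 0.025 (without IL-6 2). Scaling over all mouse probes moved the median of all tested miRNAs to -0.13, and no scaling to 0.27. Beyond these, the cause was not tested. Only replicate numbers 1 and 2 occur in both groups, and no label says that they pair samples; with the replicate block no member passed. At an unadjusted limma p under 0.05, 9 members were higher under most settings, 1 with normexp and 4 without IL-6 1.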
